A study of Mus musculus with 11 samples.

Results

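The transcripts described here are 10 immediate early genes of the mouse medulloblastoma line SMB21: Egr1, Egr2, Egr3, Fos, Fosb, Fosl2, Jun, Junb, Ier2 and Arc. They were taken by symbol from a table of 22619 genes, and all 10 were found in it and passed the filter on low counts in each of the 6 comparisons. RNA was sequenced in 11 libraries. Parental cells were taken after 24 h with sonidegib, an inhibitor of the Hedgehog receptor component Smoothened (n = 2). Sufu mutant clones R13 and R1 came from a transposon screen (n = 2), and so did Ofd1 mutant clones R14, R16 and R25, with a pair of libraries from R14 (n = 4). Untreated parental cells gave 3 libraries. All groups share a Ptch mutant background of the strain Ptch1tm1Mps/J, were grown as neurospheres in B27 medium, and are derivatives of 1 cell line, so each clone is 1 isolate. The labels do not say whether the clones were kept in drug. Nor do they describe any stimulation of the cells, so the values are levels in standing culture.

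Immediate early genes are transcribed within minutes of a growth factor, calcium or stress signal, without the need for new protein synthesis, and their mRNAs are short-lived. ERK-activated ternary complex factors and serum response factor act at CArG boxes, and CREB acts at cAMP response elements (CRE). Egr1, Egr2 and Egr3 encode zinc-finger transcription factors. Fos, Fosb and Fosl2 encode Fos family proteins that pair with the Jun family, encoded here by Jun and Junb, to form AP-1. Ier2 encodes a nuclear protein of the early growth response, and Arc encodes a synaptic protein best known from activated neurons. Sufu restrains the Gli factors downstream of Smoothened, and Ofd1 encodes a protein of the centriole and primary cilium.

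The promoter stretches of Egr2, Fos and Fosb are shown because the levels of these genes ran differently across the groups. RefSeq's promoter table for GRCm38.p6 matched 6 of the 10 genes, namely Egr2 with 5 starts and Fos, Fosb, Fosl2, Jun and Junb with 1 start each. Each printed stretch holds the 150 bases before an annotated start. Capitals mark the CArG box (Egr2), the CRE core TGACG on either strand (all 3 genes), the EGR site GCGNGGGCG (Fosb) and the TATA box TATAAA (Fos).
Egr2, chr10:67537719-67537868, plus strand: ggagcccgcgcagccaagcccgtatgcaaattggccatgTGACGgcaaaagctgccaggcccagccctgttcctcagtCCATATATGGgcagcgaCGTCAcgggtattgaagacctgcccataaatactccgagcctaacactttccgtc
Fos, chr12:85473740-85473889, plus strand: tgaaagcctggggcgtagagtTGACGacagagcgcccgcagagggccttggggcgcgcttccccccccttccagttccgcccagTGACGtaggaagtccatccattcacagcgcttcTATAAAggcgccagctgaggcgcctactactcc
Fosb, chr7:19310046-19310195, minus strand: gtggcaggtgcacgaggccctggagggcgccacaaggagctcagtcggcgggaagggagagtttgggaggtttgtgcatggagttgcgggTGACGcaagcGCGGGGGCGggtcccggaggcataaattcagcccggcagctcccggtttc
The search covered both strands of windows from 250 bases before to 50 after a start, and the capitals do not overlap. A CArG box was present in 4 of the 5 Egr2 windows and in 1.63% of all 32851 windows of this length. The windows of Egr2 starts 3, 4 and 5 overlap and hold the same CArG box and the same TGACG cores, so they are not separate sites. The core TGACG, which the full CRE TGACGTCA contains, was present in 3 of the 5 Egr2 windows, in the windows of Fos, Fosb and Junb and in 20.8% of all windows. The EGR site was present in the Fosb and Fosl2 windows and in 5.55% of all windows, and TATAAA in the Fos and Junb windows and in 13.6%. The AP-1 site TGANTCA, the full CRE and the ETS site CCGGAAG were in none of the windows of these genes, against 7.81%, 1.79% and 8.86% of all windows, and the Jun window held none of the motifs searched. These matches describe the letters of the windows only. Sites outside the windows were not searched, so a motif absent here may lie farther from the start.

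Library totals ran from 24308451 to 38241595 counts, and levels are CPM, counts relative to a library size scaled by the TMM method. Genes with an adjusted p under 0.05, by the Benjamini-Hochberg method over all genes tested, count as called. All 8 granule neuron lineage markers averaged above 1 CPM in every group. The summed markers of microglia reached at most 2.17 CPM, and those of fibroblasts and pericytes at most 2.28 CPM, in any library. Those of endothelium reached 14.9 CPM in an Ofd1 mutant library and 10.8 CPM in a parental library. Ofd1 averaged 15.0 ± 5.99 CPM in Ofd1 mutant libraries (SD, n = 4) and 38.5 ± 3.95 CPM in parental libraries (SD, n = 3), while Sufu stood at 2.76 and 17.7 CPM in the Sufu mutant clones R13 and R1, against 27.7 to 29.6 CPM in parental libraries. Sufu also lay below every parental library in the other groups, at 5.601 and 24.8 CPM in sonidegib libraries and 12.02 to 19.2 CPM in Ofd1 mutant libraries. In sonidegib replicate 2 short transcripts were over-represented: the rank correlation across genes of its level, relative to the other libraries, with transcript length was -0.53, against -0.0036 to 0.25 in the other libraries. Parental replicates 1 and 2 and sonidegib replicate 1 lay together on the second principal component (17.9% of the variance), apart from the other 8 libraries. The labels name no batch, and parental replicate 3 was the parental library on the side of the clones.

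Levels per kilobase of transcript gave the order of the genes in untreated parental cells. Jun was highest at 32.6 ± 4.92 CPM per kb (SD, n = 3), followed by Fosl2 at 10.1 ± 1.79 and Ier2 at 6.97 ± 0.683 CPM per kb, and these 3 genes did not overlap in any library. Junb, Egr1, Fos and Arc came next at means of 4.04, 3.22, 2.77 and 2.47 CPM per kb, and each overlapped its neighbour in that order. Fosb at 0.528 and Egr2 at 0.483 CPM per kb overlapped, and Egr3 was lowest at 0.255 ± 0.0455 CPM per kb (SD, n = 3). In the Sufu mutant libraries Egr1 averaged 12.2 ± 0.110 CPM per kb (SD, n = 2) and overlapped Fosl2 at 11.8 ± 2.03 CPM per kb. In sonidegib-treated libraries Fos averaged 8.98 ± 7.84 CPM per kb (SD, n = 2), the second highest mean of the 10 genes. That rank rests on replicate 2, where Fos stood at 14.5 CPM per kb. In replicate 1 it stood at 3.44 CPM per kb, below Jun, Arc, Ier2, Fosl2 and Junb.

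Egr1 lay higher in every clone library than in any parental library. It stood at 8.18 and 23.0 CPM in sonidegib replicates 1 and 2. In the Sufu mutant clones R13 and R1 it stood at 54.5 and 55.2 CPM. In Ofd1 mutant libraries it stood at 32.5 and 42.8 CPM (R14), 42.7 CPM (R16) and 23.4 CPM (R25), against 16.9, 14.4 and 12.0 CPM in parental libraries. The clones and the parental cells thus did not overlap, while one sonidegib library lay below all parental libraries and the other above them. The log2 fold change over parental cells was 1.94 ± 0.19 in Sufu mutant clones (SE; 3.84-fold), which ranked 4 of 13854 genes by p in edgeR's quasi-likelihood test and did not pass adjustment (Benjamini-Hochberg adjusted p = 0.137). In Ofd1 mutant clones it was 1.30 ± 0.24 (SE; 2.46-fold; edgeR adjusted p = 0.0644), and after sonidegib 0.10 ± 0.45 (SE; adjusted p = 0.927), with -0.84 without sonidegib replicate 2. In bulk cultures such as these, a different share of expressing cells and a different amount of RNA per cell cannot be told apart.

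Egr2, whose promoter windows hold the CArG box shown above, stood at 0.801 and 1.55 CPM after sonidegib and at 5.93 and 6.13 CPM in the Sufu mutant clones R13 and R1. It stood at 3.42 and 3.40 CPM (R14), 7.71 CPM (R16) and 2.93 CPM (R25) in Ofd1 mutant libraries, against 1.23, 1.43 and 1.62 CPM in parental libraries. All 6 clone libraries again lay above all 3 parental ones, and clone R16 stood apart from the other Ofd1 mutant libraries. The log2 fold change over parental cells was 2.09 ± 0.35 in Sufu mutant clones (SE; edgeR adjusted p = 0.223), 1.61 ± 0.41 in Ofd1 mutant clones (SE; adjusted p = 0.141) and -0.29 ± 0.51 after sonidegib (SE; adjusted p = 0.793).

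Egr3 was nearly absent after sonidegib, with 3 counts in each treated library (0.100 and 0.0894 CPM). It stood at 1.32 and 3.70 CPM in the Sufu mutant clones R13 and R1, and at 0.652, 4.92, 6.63 and 3.22 CPM in the Ofd1 mutant libraries in the order R14, R14, R16 and R25. Parental libraries held 0.823, 1.01 and 1.18 CPM. Both treated libraries lay below every other library, and the only clone library inside or under the parental range was the first of R14, at 21 counts. Over pooled counts, 6 in sonidegib-treated against 104 in parental libraries, the ratio of parental over treated was 10.7 (95% interval 4.74 to 29.8, counting error only). The fitted log2 fold change over parental cells was -3.36 ± 0.63 after sonidegib (SE; edgeR adjusted p = 0.109), 1.33 ± 0.55 in Sufu mutant clones (SE; adjusted p = 0.515) and 1.94 ± 0.68 in Ofd1 mutant clones (SE; adjusted p = 0.252). Without Sufu mutant clone R1 its log2 fold change in that class was 0.41 (adjusted p = 0.907), and without sonidegib replicate 1 that after sonidegib was -3.49 (adjusted p = 0.038).

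**Figure D1:**
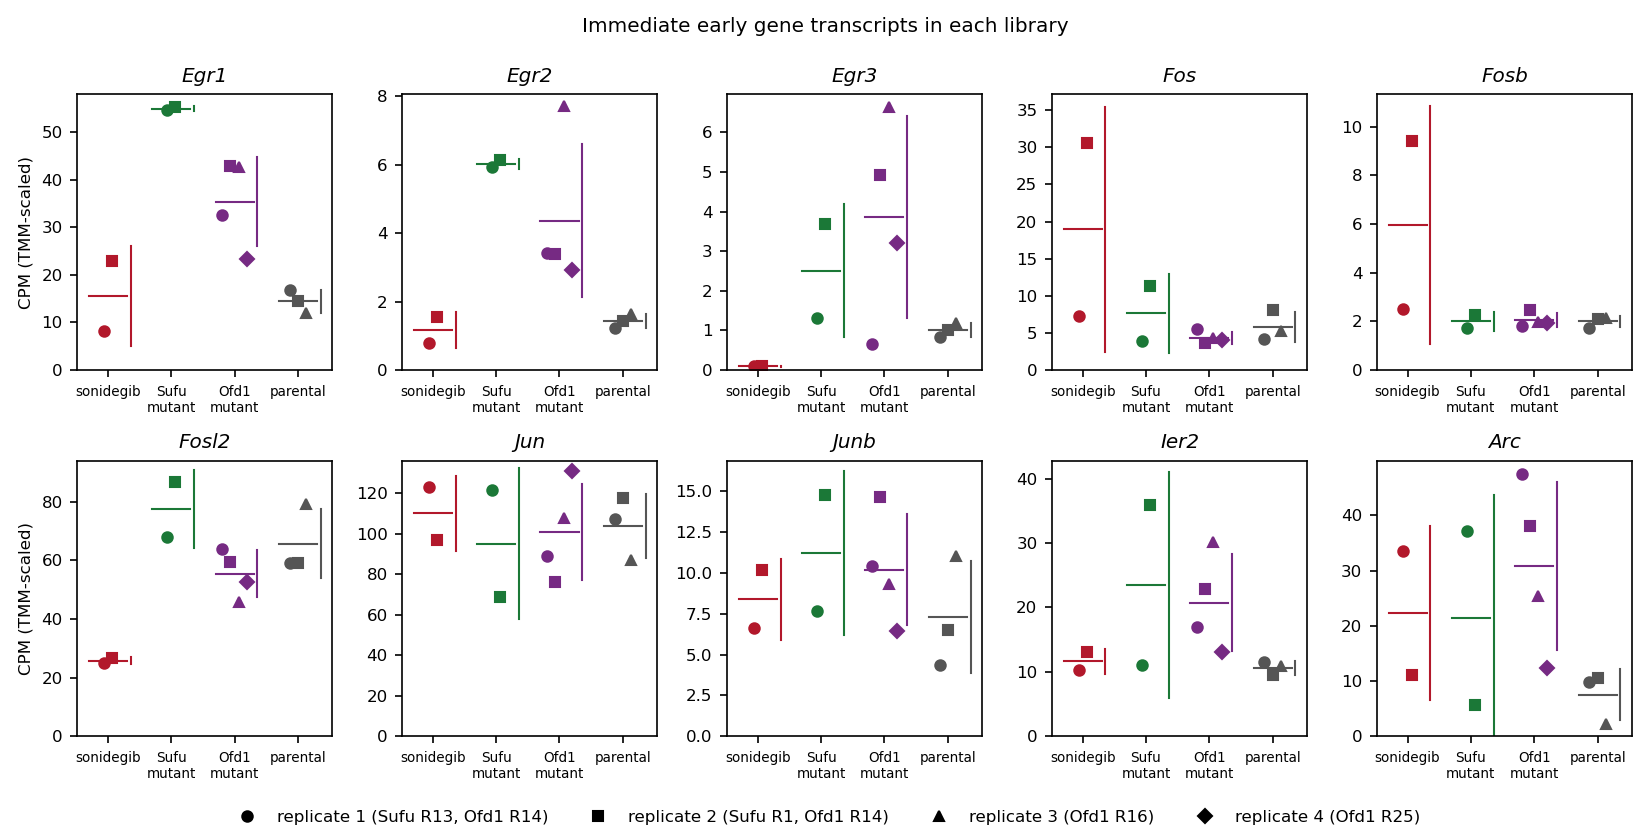
Levels of the 10 immediate early genes in each library, as CPM on TMM-scaled library sizes (linear axes from 0), with points for libraries, horizontal bars for group means and vertical bars for 1 SD, not drawn below 0. Egr1 and Egr2 lie above every parental library in all 6 clone libraries, Fosl2 and Egr3 lie lowest in both sonidegib libraries, and Fos and Fosb are highest in sonidegib replicate 2.

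Fos and Fosb did not share the pattern of the Egr genes. Fos stood at 7.24 and 30.6 CPM in sonidegib replicates 1 and 2, and at 3.89 and 11.4 CPM in the Sufu mutant clones R13 and R1. Ofd1 mutant libraries held 5.47 and 3.59 CPM (R14), 4.26 CPM (R16) and 4.00 CPM (R25), against 4.21, 8.10 and 5.23 CPM in parental libraries. Its highest level was that of sonidegib replicate 2, and every group overlapped the parental range. The log2 fold change over parental cells was 1.68 ± 0.60 after sonidegib (SE; edgeR adjusted p = 0.316), 0.40 ± 0.52 in Sufu mutant clones (SE; adjusted p = 0.835) and -0.43 ± 0.29 in Ofd1 mutant clones (SE; adjusted p = 0.574). Fosb stood at 2.50 and 9.41 CPM in sonidegib replicates 1 and 2, and between 1.72 and 2.48 CPM in the other 9 libraries. Both sonidegib libraries therefore lay above the rest for Fosb, one of them by a narrow margin. Its log2 fold change over parental cells was 1.56 ± 0.59 after sonidegib (SE; adjusted p = 0.335), 0.01 ± 0.40 in Sufu mutant clones (SE; adjusted p = 0.994) and 0.05 ± 0.27 in Ofd1 mutant clones (SE; adjusted p = 0.966).

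The sonidegib values of Fos and Fosb rest on replicate 2. Without it the log2 fold changes over parental cells were 0.29 for Fos (adjusted p = 0.891) and 0.31 for Fosb (adjusted p = 0.879), and without replicate 1 they were 2.34 (adjusted p = 0.0181) and 2.18 (adjusted p = 0.0184), with 3263 genes called in that fit. Between replicates 2 and 1, Fos differed by 2.01 and Fosb by 1.72 on the log2 scale. The smoothed trend of this difference with transcript length stood at 0.40 and -0.08 at the lengths of Fos and Fosb. Egr1, at 1.44 between the same libraries, also lay far from its length trend of -0.22. Junb, at 0.58, lay close to its trend of 0.50, and Ier2, at 0.33, lay below its trend of 0.63.

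**Figure D2:**
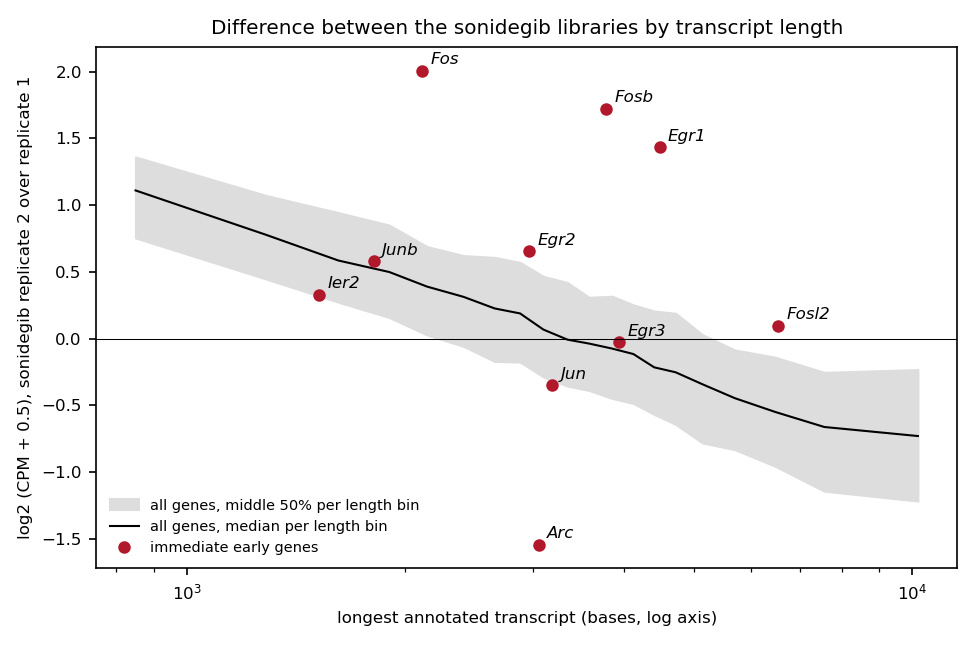
Log2 ratio of sonidegib replicate 2 over replicate 1 (vertical axis) against the length of the longest annotated transcript in bases (horizontal log axis), with the black line and grey band for the median and middle 50% of all genes per length bin. Fos, Fosb and Egr1 lie above the band at 2.01, 1.72 and 1.44, as do Egr2 at 0.66 and Fosl2 at 0.097. Arc lies below the band at -1.54, and Jun lies slightly below it at -0.35.

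Fosl2, the third of the Fos family genes here, had its lowest levels after sonidegib. It stood at 24.9 and 26.7 CPM in sonidegib libraries, 68.0 and 86.7 CPM in the Sufu mutant clones R13 and R1, and 63.9, 59.5, 45.8 and 52.7 CPM in the Ofd1 mutant libraries in the order R14, R14, R16 and R25, against 58.9, 59.0 and 79.2 CPM in parental libraries. Both sonidegib libraries lay below all 9 others, and both clone classes overlapped the parental range. The log2 fold change after sonidegib was -1.36 ± 0.24 (SE; edgeR adjusted p = 0.0899), and it ranged from -1.46 to -1.22 when any 1 library was left out, with an adjusted p of 0.0236 without sonidegib replicate 1. With the 2 sets of libraries on the second principal component as a covariate it was -1.39 (adjusted p = 0.0413), and with the length trend of each library removed it was -1.03 (adjusted p = 0.163). It was 0.25 ± 0.20 in Sufu mutant clones (SE; adjusted p = 0.71) and -0.24 ± 0.16 in Ofd1 mutant clones (SE; adjusted p = 0.57).

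Jun and Junb, the Jun family partners, overlapped the parental range in every group. Jun stood at 123 and 96.9 CPM after sonidegib, 122 and 68.9 CPM in the Sufu mutant clones R13 and R1, and 89.0, 76.3, 108 and 131 CPM in Ofd1 mutant libraries, against 107, 118 and 86.9 CPM in parental libraries. Its log2 fold changes over parental cells were 0.08 ± 0.23 after sonidegib, -0.11 ± 0.27 in Sufu mutant clones and -0.03 ± 0.20 in Ofd1 mutant clones (SE). Junb stood at 6.64 and 10.2 CPM after sonidegib, 7.65 and 14.8 CPM in the Sufu mutant clones, and 10.4, 14.6, 9.33 and 6.46 CPM in Ofd1 mutant libraries. Parental libraries were themselves spread from 4.37 to 11.05 CPM for Junb. Its log2 fold changes were 0.19 ± 0.47 after sonidegib, 0.63 ± 0.47 in Sufu mutant clones and 0.49 ± 0.37 in Ofd1 mutant clones (SE), with edgeR adjusted p of 0.859, 0.697 and 0.616.

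Ier2 and Arc differed between clones of one class. Ier2 stood at 10.3 and 13.05 CPM after sonidegib, at 11.02 CPM in Sufu mutant clone R13 and 35.9 CPM in R1, and at 16.9 and 22.9 CPM (R14), 30.2 CPM (R16) and 13.1 CPM (R25) in Ofd1 mutant libraries, against 11.5, 9.45 and 10.9 CPM in parental libraries. All 4 Ofd1 mutant libraries lay above the parental ones, but only one Sufu mutant clone did. The log2 fold change over parental cells was 0.13 ± 0.30 after sonidegib (SE; edgeR adjusted p = 0.851), 1.15 ± 0.46 in Sufu mutant clones (SE; adjusted p = 0.501) and 0.97 ± 0.28 in Ofd1 mutant clones (SE; adjusted p = 0.176). Arc stood at 33.5 and 11.1 CPM after sonidegib, at 37.1 CPM in Sufu mutant clone R13 and 5.71 CPM in R1, and at 47.5, 38.1, 25.4 and 12.5 CPM in Ofd1 mutant libraries, against 9.75, 10.6 and 2.30 CPM in parental libraries. Parental replicate 3 was lowest of all libraries, while one Sufu mutant clone lay above the parental range and the other within it. Its log2 fold change was 1.56 ± 0.71 after sonidegib (SE; adjusted p = 0.377), 1.52 ± 0.87 in Sufu mutant clones (SE; adjusted p = 0.624) and 2.03 ± 0.59 in Ofd1 mutant clones (SE; adjusted p = 0.182). Without sonidegib replicate 1 the log2 fold change of Arc after sonidegib was 0.51 (adjusted p = 0.672). Without Sufu mutant clone R13 the log2 fold change of Arc in that class was -0.40, and without R1 that of Ier2 was 0.07.

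**Figure D3:**
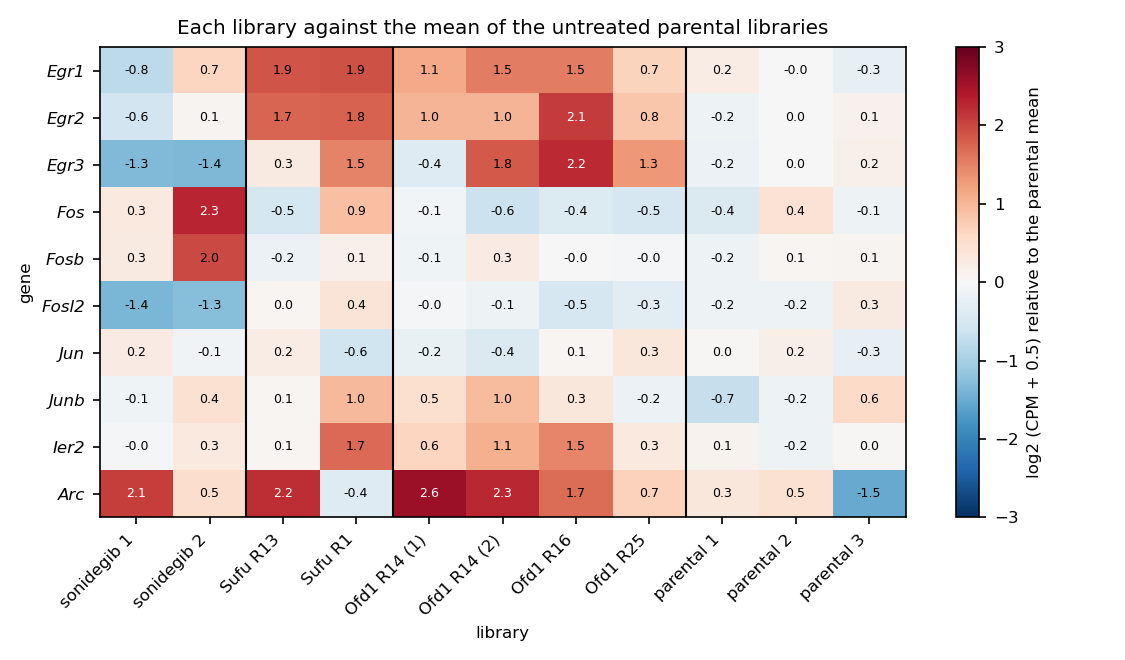
Log2 (CPM + 0.5) of each gene in each library relative to the parental mean, with the libraries of each group side by side (colour scale from -3 to 3). The Egr1 and Egr2 rows are red in all clone libraries, while the Fos row is pale in the Ofd1 mutant libraries and darkest in sonidegib replicate 2.

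Libraries of one group differed in these genes by more than in the median gene in the pairs given here. Between Sufu mutant clones R1 and R13 the median absolute log2 difference was 0.861 over the 10 genes and 0.281 over all genes that averaged 1 CPM or more. Arc (-2.60), Ier2 (1.66), Fos (1.44) and Egr3 (1.20) differed most, whereas Egr1 differed by 0.018 and Egr2 by 0.045. Between the pair of R14 libraries, which come from 1 clone, the medians were 0.380 and 0.162, and Egr3 differed by 2.23, more than 99.8% of genes. Between parental replicates 2 and 1 they were 0.201 and 0.132. Counted by library, 8 of the 10 genes lay above every parental library in Sufu mutant clone R1, 5 in R13, 4 and 7 in the R14 libraries, 5 in R16 and 6 in R25, against 3 and 5 in sonidegib replicates 1 and 2. Over all genes that share was 30.1% in R1, 23.5% in R13, 24.5% and 24.9% in R14, 28.9% in R16 and 26.5% in R25. It was 30.4% and 41.5% in sonidegib replicates 1 and 2. Below every parental library lay 1 or 2 of the 10 in each clone library, against 25.4% to 32.9% of all genes. In sonidegib replicates 1 and 2, 4 and 2 of the 10 lay below, against 28.3% and 38.4% of all genes.

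After sonidegib, none of the 10 genes passed the test, where 9 of 13809 genes did (0.0652%). The edgeR test was under an unadjusted p of 0.05 for 4 of the 10 genes and for 1939 genes in all, and DESeq2 called Egr3 and Fosl2 lower among 711 genes. Fosb and Arc lay above the parental libraries without overlap, as did 18.0% of genes, and Egr3 and Fosl2 below, as did 16.3%. The median log2 fold change was 0.11 over the 10 genes and 0.04 over all genes tested. Cell markers moved with the treatment: the 8 granule lineage markers summed to 3457 to 3865 CPM in sonidegib libraries and 2006 to 2272 CPM in parental libraries. The 7 oligodendrocyte lineage markers summed to 60.5 to 89.9 against 157 to 377 CPM, with Olig1 at 0 after sonidegib. The 7 astrocyte markers summed to 497 to 504 against 243 to 346 CPM, with Aqp4 at 0 in both groups. Their part in the results was not tested.

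Of 4 lists of related genes, none held a gene that edgeR called after sonidegib. Among 15 repressors and decay factors, Dusp6, a phosphatase that inactivates ERK, averaged 11.04 ± 2.04 CPM after sonidegib (SD, n = 2) and 51.1 ± 12.6 CPM in parental cells (SD, n = 3), with a log2 fold change of -2.22 ± 0.31 (SE; edgeR adjusted p = 0.0847). The ERK pathway inhibitors Spry4 and Spred1 had log2 fold changes of -2.04 and -1.01. Of 34 other immediate early genes tested, 26 had negative values (median -0.44), with Gadd45b at -1.84, the kinase Plk3 at -1.05 and Myc at -0.89. The 31 upstream kinases and factors had a median of -0.07, with Crem, which encodes repressors and activators at cAMP response elements, at 1.00, the ERK5 gene Mapk7 at 0.58 and the ERK-activated kinase gene Rps6ka3 at -0.96. The 14 bZIP partners tested had a median of -0.47, with Jund, the third Jun family gene, at 1.13, Atf4 at -0.65 and Nfe2l2 at -0.49. DESeq2 called 3 of the other immediate early genes and 2 of the repressors and decay factors, all lower. Without sonidegib replicate 1, which left a lone treated library, edgeR called genes in each of the lists. It called genes widely over the whole table in that fit, so these calls are not particular to the lists.

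In Sufu mutant clones no gene of 13854 was called by edgeR, the 10 included, while 4 of the 10, and 1341 genes in all, had an unadjusted p under 0.05. DESeq2 called 326 genes, among them Egr1 (adjusted p = 1.63e-13) and Egr2 (adjusted p = 6.1e-06). Egr1, Egr2 and Egr3 lay above all parental libraries, as did 11.9% of genes, and none of the 10 lay below, where 14.8% of genes did. Against parental replicate 3 alone the log2 fold changes were 2.20 for Egr1, 1.90 for Egr2 and 1.09 for Egr3. The median log2 fold change was 0.89 over the 10 genes and 0.00 over all genes tested. The astrocyte markers summed to 162 to 167 CPM in Sufu mutant and 243 to 346 CPM in parental libraries, and the granule lineage markers to 1711 to 1728 against 2006 to 2272 CPM. The part of these markers in the results was not tested.

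The other lists in Sufu mutant clones held no gene called by edgeR, while DESeq2 called 3 of the other immediate early genes (1 higher, 2 lower) and 2 of the repressors and decay factors (both higher). By edgeR, 13 of the 15 repressors and decay factors had positive values (median 0.32). Spry4 stood at 56.6 ± 13.9 CPM in the clones (SD, n = 2) and 16.9 ± 3.01 CPM in parental cells (SD, n = 3), a log2 fold change of 1.75 ± 0.23 (SE; edgeR adjusted p = 0.178). Dusp6 had a log2 fold change of 1.24 (adjusted p = 0.24) and Spry1, another ERK pathway inhibitor, of 0.73 (adjusted p = 0.438). Among the other immediate early genes the smallest p belonged to Ier5 (-0.64), Klf10 (0.97) and Gadd45b (-1.21), and the median was 0.12. Upstream genes had a median of -0.06, with Rps6ka3 at 0.74, the ternary complex factor gene Elk4 at -0.49 and the CREB coactivator gene Crtc1 at 0.59. The bZIP partners had a median of 0.20, with Atf3 at 1.71 and Jdp2 at 1.52. Atf3 is a stress-induced member of the ATF family and Jdp2 a repressor that pairs with Jun.

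In Ofd1 mutant clones none of the 10 genes passed the edgeR test, where 50 of 13779 genes did (0.363%), and Egr1 came closest. Under an unadjusted p of 0.05 there were 5 of the 10 genes and 1899 genes in all. DESeq2 called 5 of the 10 higher among 770 genes, namely Egr1, Egr2, Egr3, Ier2 and Arc. Without clone R25 the log2 fold change of Egr1 was 1.45 (edgeR adjusted p = 0.0211), and with the R14 libraries summed into 1 sample it was 1.26 (adjusted p = 0.125). Egr1, Egr2, Ier2 and Arc lay above all parental libraries, as did 6.17% of genes, and none of the 10 below, as did 7.25%. Against parental replicate 3 alone the log2 fold changes were 1.56 for Egr1, 1.42 for Egr2, 0.93 for Ier2 and 3.74 for Arc. The astrocyte markers summed to 205 to 269 CPM in Ofd1 mutant and 243 to 346 CPM in parental libraries. Oligodendrocyte lineage markers summed to 234 to 430 against 157 to 377 CPM. Granule lineage markers summed to 1921 to 2384 against 2006 to 2272 CPM. The part of these sums in the results was not tested. The clone classes share the parental libraries, so their values are given side by side and not as separate support.

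Of the other lists, none held a gene called by edgeR in Ofd1 mutant clones. DESeq2 called 3 of the other immediate early genes, 3 upstream genes, 2 bZIP partners and 4 repressors and decay factors. Without parental replicate 3, edgeR called 1 gene in each list, among 329 genes called in all. Without clone R25 it called 2 other immediate early genes and 1 of the repressors and decay factors. Btg2, an antiproliferative early gene, averaged 82.4 ± 18.0 CPM in Ofd1 mutant libraries (SD, n = 4) and 267 ± 126 CPM in parental libraries (SD, n = 3), a log2 fold change of -1.68 ± 0.34 (SE; edgeR adjusted p = 0.0846). Klf10 and Atf3 had log2 fold changes of 0.74 and 1.77, and the median of the 34 other immediate early genes tested was 0.16. Mef2c, a MADS-box factor of neurons and muscle, stood at 1.12 (adjusted p = 0.0759), the JNK gene Mapk10 at -0.71 and Elk3 at -0.75, in an upstream list with a median of -0.01. Maf and Batf3 stood at 1.39 and 1.07 among the bZIP partners. Among repressors and decay factors, Zfp36l1, which promotes decay of AU-rich mRNAs, stood at -0.69, Spry1 at 0.64 and Spry4 at 0.83, with a list median of 0.33.

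**Figure D4:**
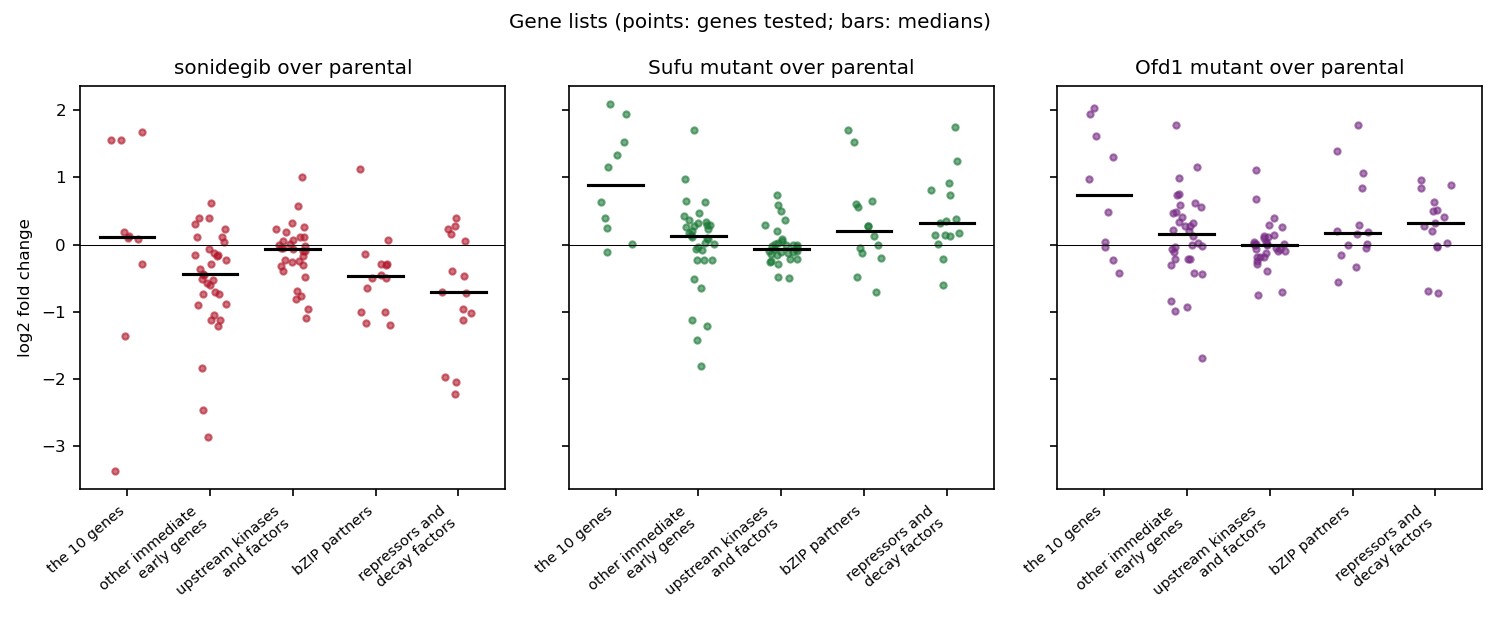
Log2 fold changes over parental cells of the genes tested in each list (points, spread sideways for view) with the list median as a bar, for sonidegib-treated, Sufu mutant and Ofd1 mutant cells from left to right. The median of the repressors and decay factors is -0.70 after sonidegib, 0.32 in Sufu mutant clones and 0.33 in Ofd1 mutant clones.

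Set against sonidegib-treated cells, the Ofd1 mutant clones gave the only calls that edgeR made among the 10 genes, with the libraries of the groups compared in the fit. Egr3 and Fosl2 were called higher and Fos lower in Ofd1 mutant clones, 3 of 10 genes, where 900 of 14014 genes were called (6.42%), 3.97% higher and 2.45% lower. The log2 fold changes were 5.31 ± 1.10 for Egr3 (SE; edgeR adjusted p = 0.034), 1.12 ± 0.21 for Fosl2 (SE; adjusted p = 0.0269) and -2.10 ± 0.50 for Fos (SE; adjusted p = 0.049). For Egr3 the pooled counts were 508 in Ofd1 mutant and 6 in sonidegib libraries, a ratio of 40.2 (95% interval 18.3 to 110). Egr2 at 1.91 ± 0.58 (SE; adjusted p = 0.0878), Egr1 at 1.20 ± 0.44 (SE; adjusted p = 0.129) and Fosb at -1.51 ± 0.51 (SE; adjusted p = 0.108) did not pass. Egr1, Egr2, Egr3, Fosl2 and Ier2 lay above both sonidegib libraries in all 4 Ofd1 mutant libraries (Ier2 by a slim margin in R25), as did 19.0% of genes, and Fos and Fosb below, as did 19.3%.

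These 3 calls depended on single libraries. Without sonidegib replicate 1 all 3 held (adjusted p = 0.0499 for Egr3, 0.0181 for Fosl2 and 0.00272 for Fos), and Fosb was called too, at -2.18 (adjusted p = 0.00669). Without sonidegib replicate 2, Fosb was at -0.30 (adjusted p = 0.726), Fos was at -0.76 (adjusted p = 0.297), Fosl2 at 1.14 (adjusted p = 0.0781) and Egr3 at 5.20 (adjusted p = 0.161), and none of the 10 was called without the second R14 library, R16 or R25 either. Egr3 alone was called without the first R14 library (adjusted p = 0.0316) or with the R14 libraries summed (adjusted p = 0.0357). With the length trend removed, Fosl2 was at 0.78 (adjusted p = 0.0847).

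The other lists held 14 called genes in Ofd1 mutant clones against sonidegib-treated cells. Of the 15 repressors and decay factors 5 were higher and 1 lower. Dusp6 averaged 94.0 ± 28.6 CPM in Ofd1 mutant and 11.04 ± 2.04 CPM in sonidegib libraries (SD, n = 4 and 2), a log2 fold change of 3.10 ± 0.38 (SE; edgeR adjusted p = 0.012). Spry4 rose by 2.88 (adjusted p = 0.0157), Spry1 by 1.36, Zfp36l2 by 1.22 and Spred1 by 1.21, and Zfp36l1 fell by 0.96 on the log2 scale. Among bZIP partners Maf was at 2.56, Batf3 at 2.26 and Jund at -1.45. Among upstream genes Crem was at -1.40, Mef2c at 1.11 and Mapk7 at -0.86, and among other immediate early genes Plk3 was at 1.51 and Btg2 at -1.51. Without sonidegib replicate 2 none of the repressors and decay factors was called, and 1 gene was called in each of the other lists. With the R14 libraries summed, edgeR called 3 of the repressors and decay factors, 1 bZIP partner and no gene of the other 2 lists.

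In Sufu mutant clones set against sonidegib-treated cells none of the 10 genes passed, where 15 of 13613 genes did (0.110%). The test was under an unadjusted p of 0.05 for 4 of the 10 and for 1909 genes in all, and DESeq2 called the same 4 among 785 genes, namely Egr1, Egr2, Egr3 and Fosl2. Their log2 fold changes were 1.85 ± 0.52, 2.38 ± 0.66, 4.69 ± 0.94 and 1.61 ± 0.32 (SE), with edgeR adjusted p of 0.223, 0.218, 0.139 and 0.137. All 4 were called with the 11 libraries in one fit, and Egr3 without clone R13 (adjusted p = 0.0057). These 4 genes lay above both sonidegib libraries in both clones, as did 23.5% of genes, and Fosb lay below, as did 25.9%. Of the other lists edgeR called only Dusp6, at 120 ± 11.2 CPM in Sufu mutant and 11.04 ± 2.04 CPM in sonidegib libraries (SD, n = 2 each), a log2 fold change of 3.46 ± 0.34 (SE; adjusted p = 0.0333), and the call was lost without either sonidegib library. DESeq2 called 2 other immediate early genes, 2 upstream genes, 3 bZIP partners and 4 repressors and decay factors, and edgeR with all 11 libraries in one fit called 2, 3, 1 and 7 in the same order. The lowest p among the others belonged to Plk3 (1.68), Atf3 (2.16) and Myc (1.06), to Rps6ka3 (1.70), Crem (-1.50) and Crtc1 (0.89), and to Jund (-1.60) and Maf (1.78).

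**Figure D5:**
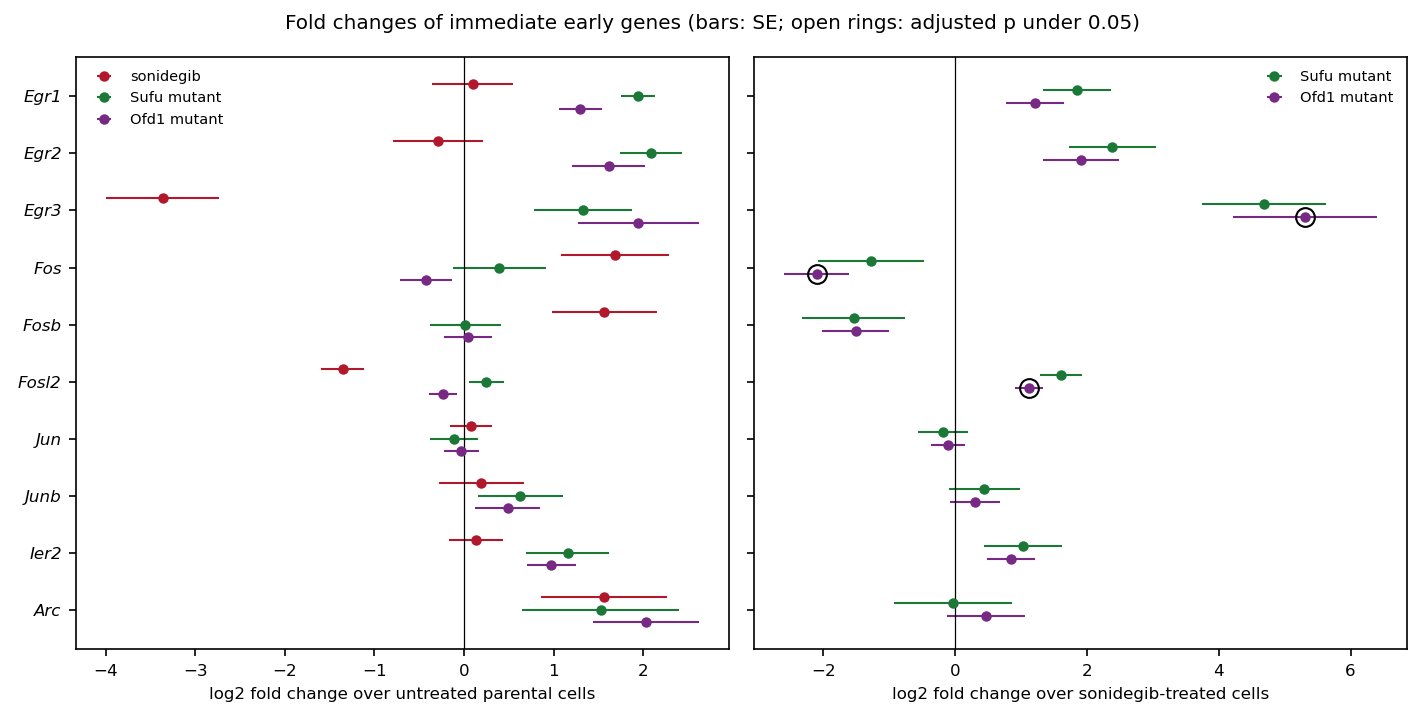
Log2 fold changes with SE of the 10 genes over untreated parental cells (left) and over sonidegib-treated cells (right), with open rings at adjusted p under 0.05. Rings mark Egr3, Fos and Fosl2 in Ofd1 mutant clones over sonidegib-treated cells, and no gene over parental cells.

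Between the clone classes, Ofd1 mutant against Sufu mutant, no gene of the 10 was called, where 1 of 14026 genes was (0.00713%). DESeq2 called none of the 10 either, among 266 genes, and edgeR gave an unadjusted p under 0.05 for 2 of the 10 and for 1253 genes in all. Egr1 was at 35.3 ± 9.32 CPM in Ofd1 mutant and 54.9 ± 0.492 CPM in Sufu mutant libraries (SD, n = 4 and 2), a log2 fold change of -0.66 ± 0.24 (SE; edgeR adjusted p = 0.512). Fosl2 was at -0.50 ± 0.18 (SE; adjusted p = 0.494). Both lay lower in all Ofd1 mutant libraries, as did 8.34% of genes, and none of the 10 lay higher, as did 9.85%. The other genes overlapped between the classes, with log2 fold changes from -0.83 (Fos) to 0.60 (Egr3). No gene of the other lists was called, and those with the smallest p were Btg2 (-0.57), Plk2 (0.62) and Myc (-0.40), Elk3 (-0.72), Elk4 (0.51) and Atf1 (0.34), Maf (0.77), Batf3 (1.18) and Fosl1 (-0.46), and Spry4 (-0.93), Spred2 (-0.36) and Dusp5 (-0.52).

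Across the 11 libraries, which share groups and clones, Egr1 tracked Egr2, Ier2 and Egr3 more closely than it tracked Fos. On log2(CPM + 1), Pearson's r with Egr1 was 0.91 for Egr2, 0.72 for Ier2, 0.63 for Egr3 and -0.13 for Fos, and r of Fos with Fosb was 0.87. Of the 10934 genes that averaged 5 CPM or more, those most like Egr1 were the growth arrest gene Gadd45a (r = 0.90), Zc3h8, 1110008J03Rik, Ttc39a and Minpp1 (r = 0.87). Gadd45a stood at 104 CPM in Sufu mutant clone R1, 34.7 CPM in R13 and 13.7 to 55.4 CPM in Ofd1 mutant libraries. Parental libraries held 10.7 to 11.8 CPM of it. Sonidegib replicate 1 lay below them, at 7.27 CPM. Replicate 2 held 24.3 CPM, more than the first R14 library (18.4 CPM) and R25 (13.7 CPM). That Gadd45a ran like Egr1 follows from how it was picked. Those most like Fos were Mrrf (r = 0.96), Mettl15, Itgb1bp1, Elof1 and Commd4 (r = 0.94). All 5 were highest in sonidegib replicate 2, as Fos was, which follows from how they were picked. Elof1 stood at 148 CPM there and in no other library above 68.4 CPM. That library was also rich in short transcripts, and the part of length in these values was not tested.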

How the data were processed

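The deposited data are raw read counts, 1 table with genes by symbol in its rows and the 11 libraries in its columns. Per the labels' protocols, poly(A) libraries were made with a stranded kit and read from 1 end on a single run. The submitters' processing notes name STAR, DESeq2 and build mm9, while counting tool, strand setting, annotation and versions are not given in those sources, so antisense reads cannot be separated. One entry without a gene name (0.0131% to 0.0192% of counts) was left out.

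Each pair of groups was fitted on its own libraries with edgeR 4.0.16 in R 4.3.3 (robust quasi-likelihood test, TMM factors, filterByExpr). P-values were two-sided and Benjamini-Hochberg adjusted over all genes tested, and a gene was called at an adjusted p under 0.05. CPM used TMM-scaled library sizes over all 11 libraries, and SE is the log2 fold change divided by the root of F. Where nothing says that libraries came from separate cultures, p-values measure the spread between these libraries only. The fit was tested on simulated data. Lengths are those of the longest GENCODE vM21 transcript of a symbol (98.7% of genes). Ratios of pooled counts carry exact 95% intervals for counting error only.

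Alternatives were DESeq2 1.42.0, its size factors in edgeR, no filter, all 11 libraries in one fit, each library left out, a length trend removed, R14 libraries summed, a replicate block and sets of libraries. The 10 genes and the lists (93 genes in 4 lists, all in the table) were chosen with earlier results of these data known. All 10 were reported in each comparison. From each list the called genes were named, up to 6 by fold change, or else up to 3 with the smallest p. One gene that this rule names is not reported here. Replicate numbers are shared by sonidegib, R14 and parental libraries, and the labels do not say that they mark a shared culture or day.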

Additional observations from a re-analysis of the deposited data

Results flagged for a closer look

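A check for a library far from the others covered the Ofd1 mutant group only. There, Egr2 was the 1 gene of the 10 that was flagged. Clone R16 stood at 7.71 CPM, against 2.93, 3.40 and 3.42 CPM in the other Ofd1 mutant libraries. The gap to the nearest library was 0.899 of the range of the group, above Dixon's critical value for 4 samples. This check, run on the 10 genes, flags about 5% of groups of separate samples by chance. The pair of R14 libraries comes from 1 clone, so that rate need not hold here. Without R16 the log2 fold change of Egr2 over parental cells was 1.19 (edgeR adjusted p = 0.18).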

How the results depend on the processing

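Over 710 refits of a single gene's log2 fold change, 606 kept direction and side of the threshold, 36 newly passed it, 17 no longer passed it and 51 changed sign. DESeq2 called 711, 326, 770, 266, 785 and 2536 genes in sonidegib, Sufu and Ofd1 mutant against parental cells, Ofd1 against Sufu mutant, and Sufu and Ofd1 mutant against sonidegib-treated cells, and 2, 2, 5, 0, 4 and 6 of the 10. Sonidegib against parental gave 109 genes without a filter, 70 with the length trend removed, 316 with all 11 libraries in one fit (1 of the 10) and 215 with the sets of libraries as covariate (2 of the 10). Ofd1 mutant against parental gave 84 without a filter, 9 with all 11 libraries, 1 with R14 summed and 0 against parental replicate 3 alone. Without a filter, Sufu mutant against parental gave 3, Ofd1 against Sufu mutant 2 and Sufu mutant against sonidegib 164. All 11 libraries gave 1117 (4 of the 10) for Sufu and 1965 (5 of the 10) for Ofd1 mutant against sonidegib, and R14 summed gave 256 (1 of the 10) for the last and 0 for Ofd1 against Sufu mutant. The replicate block gave 97 genes for sonidegib against parental, 14 higher and 83 lower, with none of the 10 called, Egr1 at -0.19 and Jun at -0.048. For R14 against parental it gave 1600 genes, with Egr1, Egr2, Junb and Arc called (4 of the 10) and Fosl2 at 0.066. Same-numbered libraries correlated in their deviations at 0.25 and -0.33 (sonidegib) and 0.11 and -0.19 (R14). The deviations of the 2 sonidegib libraries from their mean mirror each other, so the sonidegib values cannot decide on a pairing. The labels state no pairing, and the numbers were not taken to pair the samples. Sign changes of log2 fold changes that were not called were as follows. With the length trend removed, Junb was -0.085 and Ier2 -0.18 after sonidegib, and Arc 0.046 in Sufu mutant against sonidegib. Egr1 was -0.10 after sonidegib with sets as covariate, Fosb -0.0024 in Sufu mutant clones without a filter, and Jun 0.047 in Ofd1 mutant clones with R14 summed. Against parental replicate 3 alone, Fosb, Fosl2 and Jun were -0.10, -0.024 and 0.14 in Sufu mutant clones, and Fosb, Jun and Junb -0.068, 0.22 and -0.11 in Ofd1 mutant clones. The cause of these changes was not tested. Leaving out 1 library in turn, calls ranged from 0 to 3263 genes (0 to 4 of the 10) for sonidegib against parental, 0 to 11 for Sufu mutant, 0 to 329 (0 to 1 of the 10) for Ofd1 mutant, 0 to 11 for Ofd1 against Sufu mutant, 0 to 282 (0 to 1) for Sufu mutant against sonidegib and 152 to 4806 (0 to 4) for Ofd1 mutant against sonidegib. The counts of 3263 and 4806 came without sonidegib replicate 1, 329 without parental replicate 3, 282 without clone R1 and 152 without R16. A lone remaining library was assumed to vary like the other group. The log2 fold changes that crossed 0 ranged, after sonidegib, from -0.84 to 0.62 (Egr1), -0.85 to 0.062 (Egr2), -0.064 to 0.25 (Ier2), -0.15 to 0.23 (Jun) and -0.16 to 0.59 (Junb). In Sufu mutant clones they ranged from -0.40 to 2.31 (Arc), -0.58 to 0.97 (Fos), -0.20 to 0.19 (Fosb) and -0.59 to 0.24 (Jun), and in Ofd1 mutant clones from -0.059 to 0.11 (Fosb) and -0.19 to 0.079 (Jun). For Ofd1 against Sufu mutant they ranged from -0.29 to 2.42 (Arc), -1.41 to 0.13 (Fos), -0.16 to 0.23 (Fosb), -0.81 to 0.89 (Ier2), -0.29 to 0.54 (Jun) and -0.55 to 0.39 (Junb). For Sufu mutant against sonidegib they ranged from -1.95 to 0.95 (Arc), -2.27 to 0.073 (Fos), -0.072 to 1.65 (Ier2), -0.65 to 0.15 (Jun) and -0.12 to 0.85 (Junb), and for Ofd1 mutant against sonidegib from -0.13 to 1.48 (Arc) and -0.30 to 0.081 (Jun). DESeq2 size factors in edgeR changed no sign or call of the 10. Egr3 rests on 3 to 204 counts per library, which limits its precision.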
